A study of Mus musculus with 8 samples.

Results

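Expression of 10 genes of the retinoid cycle was examined in aged retinas: Rpe65, Lrat, Rdh5, Rgr, Stra6, Rlbp1, Rbp3, Rdh8, Rdh12 and Rdh11. The genes were chosen by name for their place in the cycle, and the rule itself uses no measured value. Accessions deposited with the array were matched to a RefSeq gene table, which gave these 10 genes 14 probes, of 22911 named genes and 56605 probes in all. RNA of whole retina was hybridized to 8 single-color Agilent mouse arrays, 4 with samples labelled as homozygous Mrp4 knockout (Mrp4-null) and 4 with wild-type (WT) samples. The labels give an age of 46 to 55 weeks to both genotypes, and the methods place the knockout on a C57BL/6J background. MRP4, the product of Abcc4, is an efflux transporter of the cell membrane driven by ATP. The methods name tissue from 3 mice and 4 samples per genotype, and it is not clear whether a sample pooled animals, so the p-values below measure the spread between these samples only.

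Light isomerizes the retinal bound to rod and cone pigments, and the retinoid cycle rebuilds the cis form that the pigments need. Photoreceptors reduce the released retinal to retinol, the pigment epithelium esterifies it, isomerizes the ester and oxidizes the product, and binding proteins carry the retinoids between the cells. Müller glia hold a part of the same machinery. Loss of several of these genes causes retinal degeneration or night blindness in humans.

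Signal intensities were log2 transformed and quantile normalized, so a difference of 1 is a change of 2-fold in signal. On this scale the level of Abcc4 was 10.75 ± 0.09 (SD, n = 4) where the label was Mrp4-null and 6.83 ± 0.29 (SD, n = 4) where it was WT. The difference in log2 was 3.92 (limma, adjusted p = 1.36e-05), so this probe goes against the knockout label, and where it lies relative to the disrupted sequence is not given in the sources used here. Group names below are those of the labels. All arrays shared 1 slide, on which the Mrp4-null samples filled a row and the WT samples another, so slide row and genotype cannot be told apart. Per array, 66.0% to 69.9% of the probes passed the scanner software's test of being well above background. The upper quartile of the signal (75th percentile) was 497 on Mrp4-null 2, 514 on WT 3 and 566 on WT 4, and between 700 and 786 on the other 5 arrays. As a check of the tissue, all 10 rod markers were retained, and their mean ranged from 16.27 to 16.42 over the arrays.

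The members divide by the cells that use them. Rpe65, Lrat, Rdh5, Rgr and Stra6 act chiefly in the pigment epithelium, Rlbp1 in the pigment epithelium and Müller glia, and Rbp3, Rdh8, Rdh12 and Rdh11 chiefly in photoreceptors. The split is approximate, since Rgr is also found in Müller glia and Rdh11 in the pigment epithelium. With the array values known, the promoters of all 10 were read in the RefSeq table of GRCm38.p6. They were searched for the letters TAATCC, or GGATTA for the other strand. These letters are a core recognized by homeodomain factors of the Otx and Crx type. No other motif was searched. The window was the 250 bases before a transcription start, and the table held 14 such windows for the 10 genes. The letters stood in 3 of the 14, those of Rpe65, Rgr and Rbp3, and in 6.25% of all 32851 windows of the same length. These 3 are shown on the strand of the gene with the match in capitals. For Rpe65 on the plus strand (chr3:159598931-159599180) the match began 42 bases before the start, for Rgr on the minus strand (chr14:37049015-37049264) 167 bases before it, and for Rbp3 on the plus strand (chr14:33953753-33954002) 69 bases before it.
Rpe65: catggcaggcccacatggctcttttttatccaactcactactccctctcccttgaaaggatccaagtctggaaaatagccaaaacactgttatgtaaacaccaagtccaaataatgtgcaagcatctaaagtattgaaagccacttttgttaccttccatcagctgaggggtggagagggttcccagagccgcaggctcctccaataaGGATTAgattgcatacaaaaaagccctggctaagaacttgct
Rgr: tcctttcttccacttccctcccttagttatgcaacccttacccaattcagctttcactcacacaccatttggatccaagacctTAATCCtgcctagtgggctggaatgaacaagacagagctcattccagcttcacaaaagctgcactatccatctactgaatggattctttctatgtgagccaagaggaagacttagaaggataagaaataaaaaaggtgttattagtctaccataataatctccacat
Rbp3: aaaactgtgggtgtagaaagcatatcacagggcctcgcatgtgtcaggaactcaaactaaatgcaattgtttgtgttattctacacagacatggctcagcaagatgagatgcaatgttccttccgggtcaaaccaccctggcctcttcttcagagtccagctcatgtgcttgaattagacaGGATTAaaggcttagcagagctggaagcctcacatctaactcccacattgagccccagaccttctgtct
Rbp3 belongs to photoreceptors, Rpe65 and Rgr to the pigment epithelium, and a match describes the sequence only.

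No member met the rule for calling a difference between the genotypes, which was a fold change of at least 1.5 with a Benjamini-Hochberg adjusted p under 0.05 over all retained probes. Probes entered the test, and are called retained below, if at least 1 genotype had them well above background on all its arrays, which held for 13 of the 14 probes, from 9 genes. Of these 13, limma called 0, against 0.545% of all 37085 retained probes. The count at an unadjusted p under 0.05 was also 0, against 6.46% of all probes. The local pooled error test named in the methods called 0 members as well, against 0.626% of 37075 probes, with 1 member probe at an unadjusted p under 0.05. The share of all probes at that unadjusted p was not computed for this test, so the count of 1 has no background. The lowest adjusted p of a member in limma was 0.856, for Rdh11. The log2 fold changes had a median of -0.03 over the member probes and of -0.01 over all probes, and 6 member probes were higher and 7 lower where the label was Mrp4-null.

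**Figure D1:**
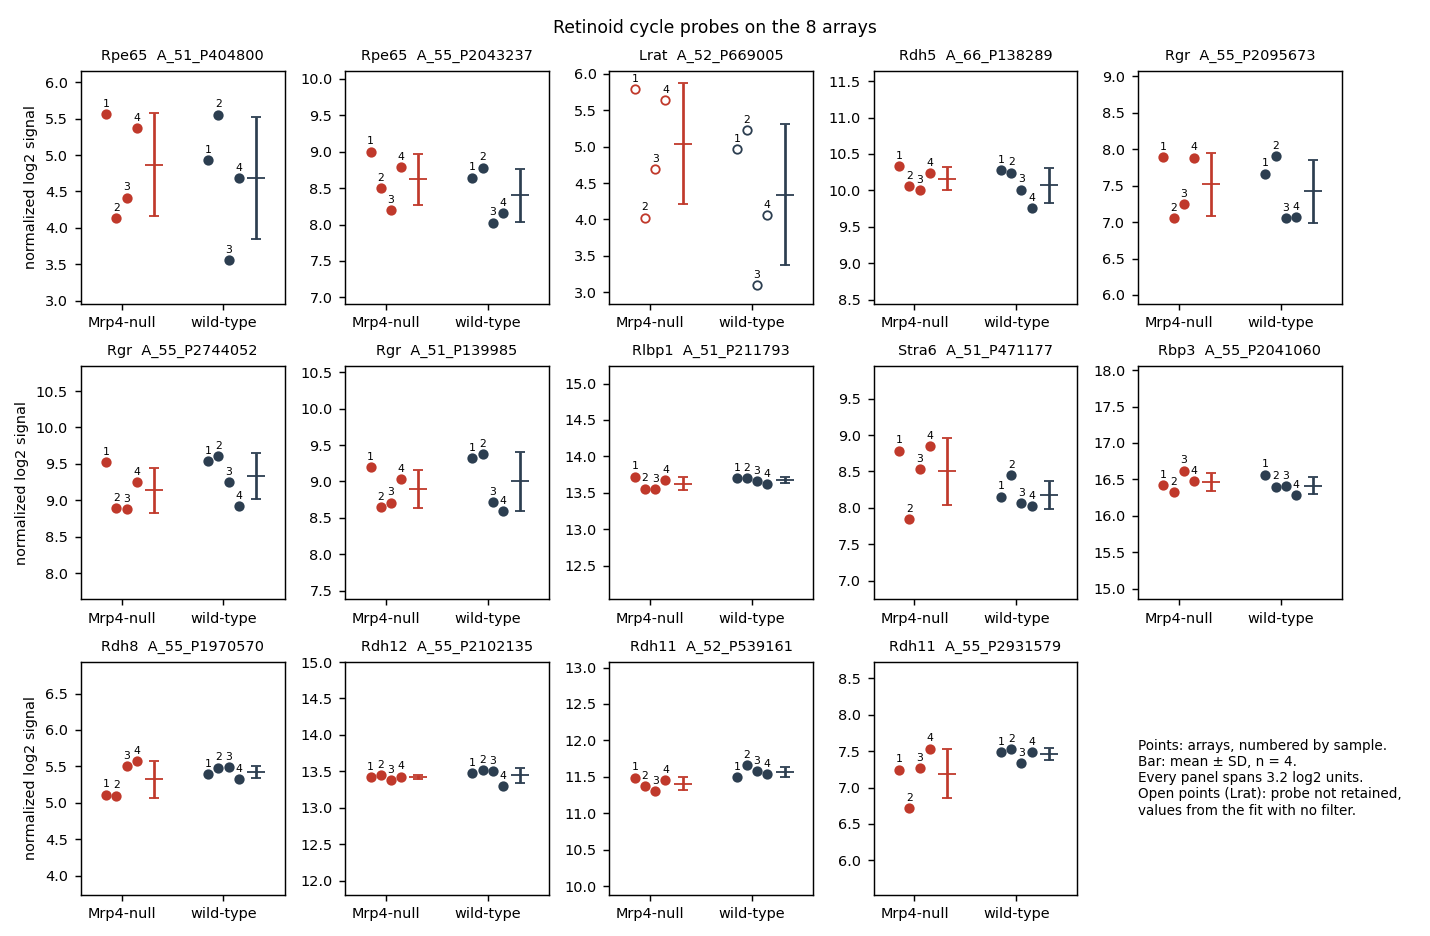
Normalized log2 signal (vertical axis) of the 14 retinoid cycle probes on the 4 arrays labelled Mrp4-null and the 4 wild-type arrays (horizontal axis), each point being 1 array with its sample number and each bar the mean ± SD. Probes of Rpe65, Lrat, Rgr and Stra6 spread over 0.74 to 2.69 log2 units, whereas Rlbp1 spread over 0.17 and Rdh12 over 0.22. Rdh5 spread over 0.58 and the dimmer Rdh11 probe over 0.81.

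Rpe65, the isomerase that turns retinyl ester into cis-retinol, had 2 probes, both on chromosome 3. The brighter probe, A_55_P2043237, read 9.0, 8.50, 8.20 and 8.79 on Mrp4-null 1 to 4 and 8.65, 8.78, 8.03 and 8.15 on WT 1 to 4. High and low arrays occurred in both genotypes, and the groups overlapped over most of their range. Its log2 fold change was 0.22 (SE 0.22, 95% interval -0.28 to 0.72, limma adjusted p = 1.00). Within each genotype the SD was larger than this difference, 0.35 on the arrays labelled Mrp4-null and 0.37 on the WT arrays.

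The dimmer Rpe65 probe, A_51_P404800, read 5.56, 4.13, 4.42 and 5.37 on Mrp4-null 1 to 4 and 4.93, 5.55, 3.55 and 4.68 on WT 1 to 4. It was well above background on 4 arrays labelled Mrp4-null and on 3 WT arrays. Its log2 fold change was 0.19 (SE 0.46), and the 95% interval of -0.86 to 1.24 runs from 0.552-fold to 2.36-fold. The residual SD of 0.77 lay at the 99.3th percentile of all retained probes. Without WT 3 the log2 fold change turned to -0.17.

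Lrat, the acyltransferase that forms the retinyl esters on which Rpe65 acts, was the member not retained. Its probe was well above background on 3 arrays labelled Mrp4-null and on 2 WT arrays, and not on Mrp4-null 2, WT 3 and WT 4. In the fit without a filter on dim probes it read 5.79, 4.03, 4.69 and 5.64 on Mrp4-null 1 to 4 and 4.97, 5.23, 3.10 and 4.06 on WT 1 to 4. The arrays that were highest for Rpe65 were thus also highest for Lrat. The readings on Mrp4-null 2, WT 3 and WT 4 are at the level of the background, so no fold change is given for Lrat.

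Rdh5, the dehydrogenase that oxidizes cis-retinol to cis-retinal, read 10.34, 10.06, 10.003 and 10.24 on Mrp4-null 1 to 4 and 10.28, 10.24, 10.01 and 9.75 on WT 1 to 4. The genotypes differed by a log2 fold change of 0.09 (SE 0.14, 95% interval -0.22 to 0.40). It was the only one of the 7 retained probes of this cell group with an interval inside a change of 1.5-fold in either direction. WT 4 was the lowest array, and without it the log2 fold change was -0.02.

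Rgr, an opsin-like protein that binds all-trans-retinal in the pigment epithelium and Müller glia, had 3 probes on chromosome 14. The probe A_55_P2744052 read 9.53, 8.90, 8.87 and 9.25 on Mrp4-null 1 to 4 and 9.54, 9.61, 9.25 and 8.92 on WT 1 to 4. A_51_P139985 read 9.20, 8.64, 8.71 and 9.03 against 9.32, 9.37, 8.72 and 8.59, and A_55_P2095673 read 7.89, 7.06, 7.24 and 7.89 against 7.67, 7.90, 7.06 and 7.06. All 3 probes ran high on Mrp4-null 1 and on WT 1 and 2. They did not share a sign between the genotypes, since the log2 fold changes were -0.19 (SE 0.20), -0.11 (SE 0.21) and 0.10 (SE 0.26) in this order, each within its error of 0.

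Stra6, the membrane receptor through which the pigment epithelium takes up retinol from its plasma carrier, read 8.79, 7.85, 8.53 and 8.84 on Mrp4-null 1 to 4 and 8.15, 8.45, 8.07 and 8.03 on WT 1 to 4. Mrp4-null 1, 3 and 4 lay above the whole WT range and Mrp4-null 2 lay below it. Stra6 had a log2 fold change of 0.33 (SE 0.22, 95% interval -0.16 to 0.82, limma adjusted p = 1.00). Without Mrp4-null 2 it was 0.55 with an adjusted p of 0.20, the lowest that any member reached under the alternatives tried.

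Rlbp1 encodes CRALBP, which binds cis-retinal and cis-retinol in the pigment epithelium and Müller glia. Its probe on chromosome 7 read 13.72, 13.56, 13.55 and 13.67 on Mrp4-null 1 to 4 and 13.70, 13.71, 13.66 and 13.62 on WT 1 to 4. All 8 values lay within 0.17, and the residual SD was at the 4.9th percentile of all retained probes. For Rlbp1 the log2 fold change was -0.05 (SE 0.08, 95% interval -0.22 to 0.13).

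Rbp3 encodes IRBP, the retinoid carrier that photoreceptors secrete into the space toward the pigment epithelium, and it lies on chromosome 14, as do Rgr and Abcc4. It read 16.42, 16.33, 16.62 and 16.47 on Mrp4-null 1 to 4 and 16.57, 16.40, 16.41 and 16.29 on WT 1 to 4. The genotypes overlapped, and the log2 fold change was 0.05 (SE 0.09, 95% interval -0.17 to 0.26). With the arrays shifted to their 75th percentile instead of quantile normalized it was -0.002, on the other side of 0, and it was -0.01 without Mrp4-null 3.

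Rdh8 and Rdh12 reduce all-trans-retinal in photoreceptor outer and inner segments. Rdh12 read 13.42, 13.45, 13.38 and 13.43 on Mrp4-null 1 to 4 and 13.47, 13.51, 13.50 and 13.30 on WT 1 to 4, and its log2 fold change was -0.03 (SE 0.08, 95% interval -0.20 to 0.15). Rdh8 read 5.11, 5.10, 5.50 and 5.58 against 5.39, 5.48, 5.49 and 5.32, and its log2 fold change was -0.10 (SE 0.13, 95% interval -0.39 to 0.19). For Rdh8 the arrays labelled Mrp4-null held both the lowest and the highest values, with an SD of 0.25 against 0.08 on the WT arrays.

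Rdh11, a further retinal reductase found in photoreceptors and the pigment epithelium, had 2 probes on chromosome 12. The brighter probe, A_52_P539161, read 11.49, 11.38, 11.30 and 11.46 on Mrp4-null 1 to 4 and 11.49, 11.66, 11.58 and 11.54 on WT 1 to 4. It was the only member probe whose groups did not overlap, with 0.001 between the highest array labelled Mrp4-null and the lowest WT array. Groups that did not overlap were seen for 4.79% of all retained probes. A log2 fold change of -0.16 (SE 0.08, 95% interval -0.34 to 0.02) was fitted, with an unadjusted p of 0.0735 and an adjusted p of 0.856 in limma. The second probe, A_55_P2931579, read 7.25, 6.72, 7.26 and 7.53 against 7.49, 7.52, 7.34 and 7.49, with a log2 fold change of -0.27 (SE 0.16, 95% interval -0.63 to 0.09). Its groups overlapped, because Mrp4-null 4 was the highest of the 8 arrays.

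**Figure D2:**
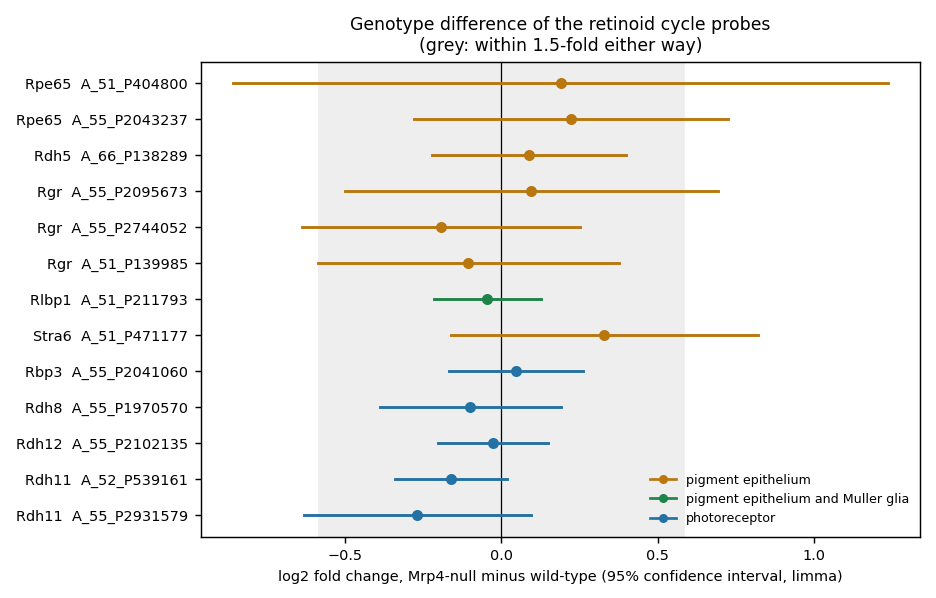
Log2 fold change of the 13 retained retinoid cycle probes (horizontal axis, arrays labelled Mrp4-null minus wild-type) with the 95% confidence interval of limma, 1 line per probe, colored by the cells that use the gene. The intervals of 6 probes lie inside the grey band of 1.5-fold either way, and every interval crosses 0.

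The intervals state how large a difference these arrays still allow. For 6 of the 13 member probes (46.2%) the 95% interval lay inside 1.5-fold in either direction, against 77.2% of all retained probes. Those 6 were the probes of Rdh5, Rlbp1, Rbp3, Rdh8 and Rdh12 and the brighter probe of Rdh11. For Rpe65, Rgr, Stra6 and the dimmer probe of Rdh11, a change of 1.5-fold in 1 direction or the other lay within the interval of each probe. In whole retina, fewer cells of a type and less RNA per cell cannot be told apart in any of these values.

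The members of the pigment epithelium varied between arrays of the same genotype with residual SDs from the 54.9th percentile of all probes (Rdh5) to the 99.3th (the dimmer Rpe65 probe). The 7 retained probes of Rpe65, Rdh5, Rgr and Stra6 had a median residual SD of 0.35, the 5 photoreceptor probes a median of 0.12, and all retained probes a median of 0.19. The probes also differ in signal level. Rdh5, at a mean of 10.16 on the Mrp4-null arrays, had 0.20, and the dimmer Rdh11 probe, at 7.19, had 0.25. Rdh8, at 5.32, had 0.19. The part of signal level in this contrast was not tested. The order of the arrays recurred across the 7 probes, some of which belong to the same gene. Mrp4-null 1, Mrp4-null 4 and WT 2 were among the highest 4 arrays for 7 of the 7 probes, and WT 1 for 6. Mrp4-null 3 was among them for 1 probe, and Mrp4-null 2, WT 3 and WT 4 for 0. The latter are the 3 arrays with the lowest upper quartile of signal, 497 to 566 against 700 to 786, and the part of signal in this order was not tested.

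**Figure D3:**
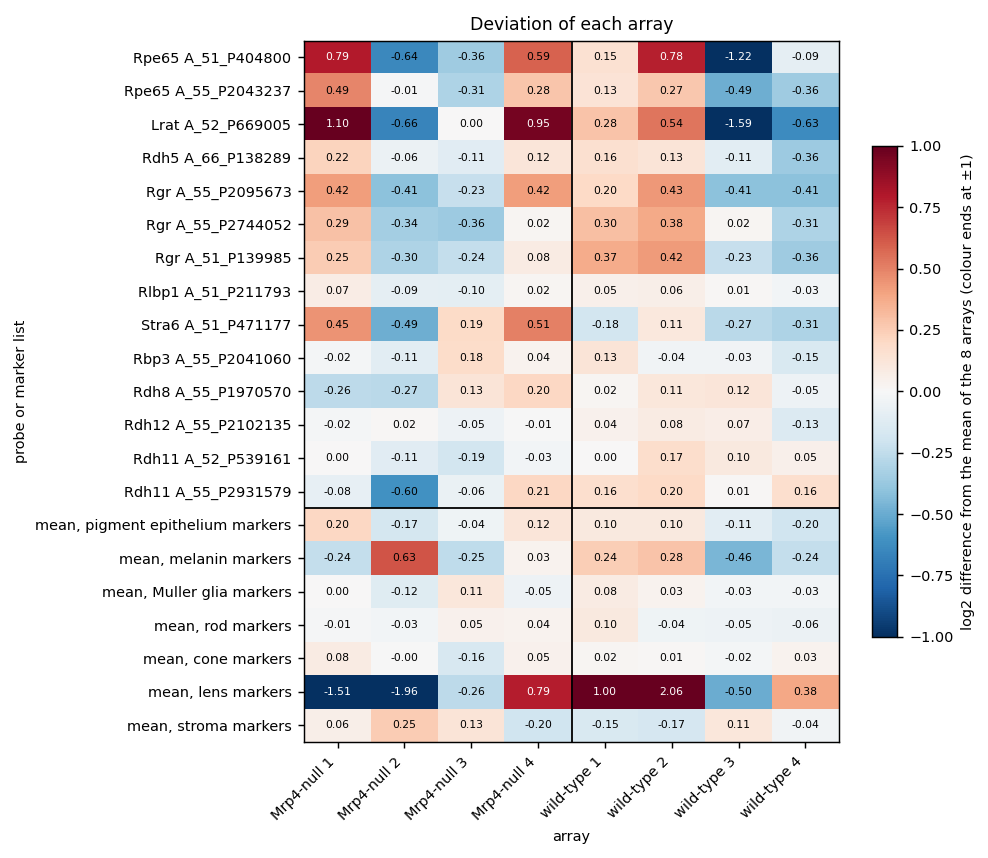
Log2 difference of each array (columns) from the mean of the 8 arrays for the 14 retinoid cycle probes and the means of 7 marker lists (rows), with the value in each cell and a colour scale that ends at ±1. The probes of Rpe65, Lrat, Rdh5 and Rgr are above 0 on Mrp4-null 1, Mrp4-null 4, wild-type 1 and wild-type 2, and the rod marker row stays between -0.06 and 0.10.

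As a description over the 8 arrays, the 17 pairs of probes from different genes of the pigment epithelium group had Pearson correlations with a median of 0.759, from 0.394 to 0.902, all 17 of them positive. Within the genotypes, after each genotype's mean was taken away, the median was 0.819. Because Rgr and Rpe65 each have multiple probes, the pairs repeat the same genes and are not independent. All of them also share libraries, total signal and normalization. Between pigment epithelium and photoreceptor members, 35 pairs had a median of 0.284, from -0.256 to 0.648. Within the genotypes the median of these 35 pairs was 0.382, from -0.174 to 0.902. Rlbp1 correlated with the 7 pigment epithelium probes with a median of 0.66, although its own range was small. Among the photoreceptor members, 9 pairs had a median of 0.198.

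Markers outside the retinoid cycle were read on the same arrays. The mean of 9 pigment epithelium markers (Best1, Slc16a8, Rrh, Ermn, Ttr, Krt8, Krt18, Slc26a7 and Slc6a20a) was 8.78, 8.40, 8.53 and 8.70 on Mrp4-null 1 to 4 and 8.67, 8.68, 8.47 and 8.38 on WT 1 to 4. These are the same 4 high arrays as for Rpe65. Mean levels within the list ran from 4.5 (Slc26a7) to 15.1 (Ermn) on the arrays labelled Mrp4-null. Krt18 was at 13.5 there and the brighter Rpe65 probe at 8.6. How much of each marker's signal came from the pigment epithelium was not tested. Marker by marker, the correlation with Rpe65 was positive for 8 of the 9, with a median of 0.539, from -0.137 for Rrh to 0.82 for Ttr, and it was 0.044 for Krt18 and 0.066 for Krt8. The 10 rod markers had a median of 0.237, with Gnat1 highest at 0.853, the 8 cone markers a median of 0.378, with Cnga3 highest at 0.798, and the 10 Müller glia markers a median of 0.132. The value of Gnat1 was above that of Ttr, and no difference between the lists was tested. Of 4 relations tested between members and marker means over the 8 arrays, that of Rpe65 with these markers gave Pearson's r = 0.843 (exact permutation p = 0.0163, adjusted 0.0326) and Spearman's rho = 0.881 (exact permutation p = 0.00724, adjusted 0.0145). Without WT 4 and Mrp4-null 2, the arrays farthest from the median of the markers, r was 0.992 over 6 arrays. Within genotypes r was 0.841. Without single arrays r stayed between 0.767 and 0.942, and the adjusted exact permutation p rose above 0.05 without Mrp4-null 1, Mrp4-null 4, WT 1 or WT 2.

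Rlbp1 followed the pigment epithelium markers with r = 0.763 (exact permutation p = 0.034, adjusted 0.0453) and rho = 0.762 (exact permutation p = 0.0368, adjusted 0.0491), and with r = 0.694 over the 6 arrays without WT 4 and Mrp4-null 2 (exact permutation p = 0.111). Within genotypes r was 0.916, and without single arrays r ranged from 0.694 to 0.869, with the adjusted exact permutation p below 0.05 without Mrp4-null 3 or WT 4 and above it without any of the other 6 arrays. With the arrays shifted to their 75th percentile it fell to 0.111. Against the mean of 10 Müller glia markers, which ranged over only 0.234, Rlbp1 gave r = 0.185 (exact permutation p = 0.655, adjusted 0.655) and rho = 0.167 (exact permutation p = 0.703, adjusted 0.703). Without Mrp4-null 3 and Mrp4-null 2, r was 0.605, and without Mrp4-null 3 alone it was 0.837, where the adjusted exact permutation p of 0.0194 passed the threshold. Within genotypes r was 0.12.

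Rbp3 followed the 10 rod markers with r = 0.858 (exact permutation p = 0.00546, adjusted 0.0218) and rho = 0.881 (exact permutation p = 0.00724, adjusted 0.0145). Without WT 1 and Mrp4-null 3, r was 0.748 over the remaining 6 arrays (exact permutation p = 0.0875). Without single arrays r ranged from 0.818 to 0.9, and the adjusted exact permutation p rose above 0.05 without Mrp4-null 1, Mrp4-null 4 or WT 2 and stayed below it without any other array. Within genotypes r was 0.85. The rod means were 16.32, 16.30, 16.37 and 16.36 on Mrp4-null 1 to 4 and 16.42, 16.29, 16.28 and 16.27 on WT 1 to 4, a range of 0.154 in all. The mean of 8 cone markers ranged from 13.13 to 13.38.

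**Figure D4:**
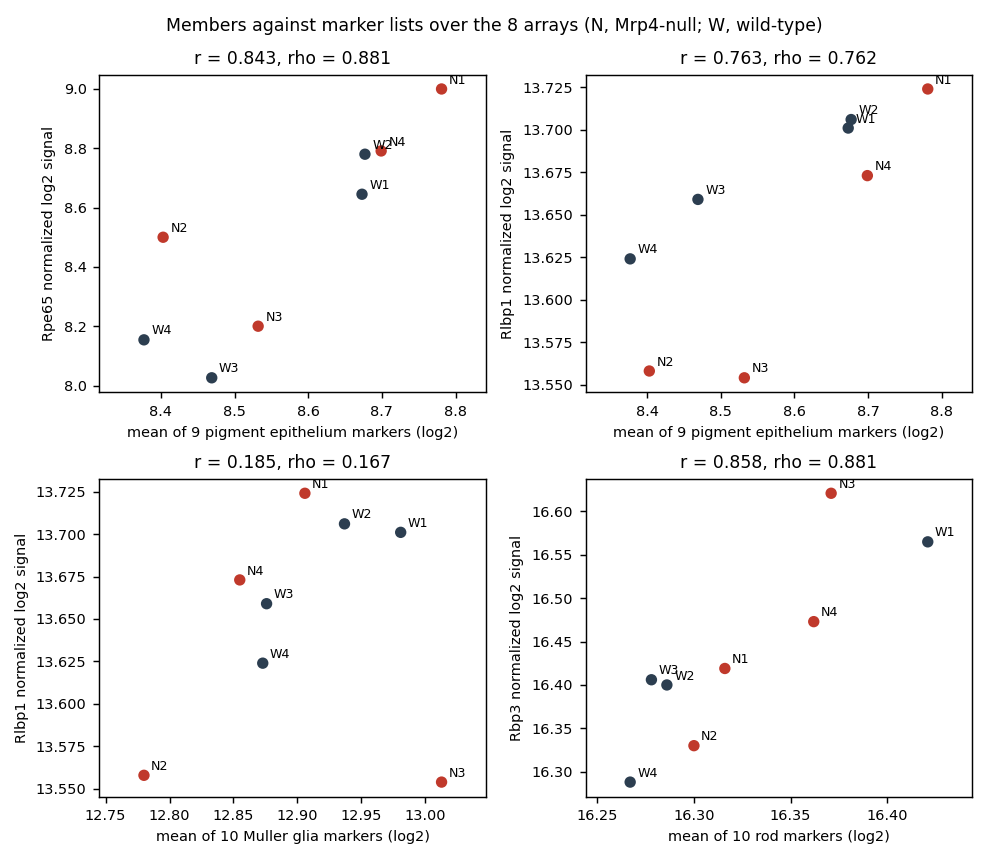
Normalized log2 signal of Rpe65, Rlbp1 and Rbp3 (vertical axes) against the mean log2 signal of a marker list (horizontal axes), 1 point per array, with N for arrays labelled Mrp4-null and W for wild-type arrays. Pearson's r is 0.843 for Rpe65 with the pigment epithelium markers, 0.763 and 0.185 for Rlbp1 with the pigment epithelium and Müller glia markers, and 0.858 for Rbp3 with the rod markers.

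Other tissue that a dissected retina can carry was read with lists of melanin, lens and stroma genes. Of 8 melanin genes 5 were retained, with Slc45a2, Oca2 and Gpr143 not retained, and their mean was 6.22, 7.09, 6.21 and 6.50 on Mrp4-null 1 to 4 and 6.71, 6.75, 6.001 and 6.22 on WT 1 to 4. The highest array was Mrp4-null 2, which was low for Rgr, Lrat, Stra6 and the dimmer Rpe65 probe and in the middle for the brighter one, and the next highest were WT 2, WT 1 and Mrp4-null 4, which were high for Rpe65. Mrp4-null 1, the highest array for Rpe65, stood close to WT 4 and Mrp4-null 3 in the melanin mean. The correlations of the 5 melanin genes with Rpe65 had a median of 0.366, from -0.135 for Pmel to 0.678 for Dct, and 4 of the 5 were positive. The mean of 10 lens genes ranged from 6.32 to 9.07 on the arrays labelled Mrp4-null and from 7.78 to 10.34 on the WT arrays, and the correlations of these 10 with Rpe65 had a median of 0.118, from -0.019 to 0.275. Of the 3 retained stroma genes (Col1a1, Col1a2 and Dcn, with Col3a1 and Lum not retained) the mean ranged from 6.50 to 6.95 and from 6.53 to 6.81. The part of pigment epithelium left on the retina in the values of Rpe65, Rdh5, Rgr, Stra6 and Lrat was not tested.

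The genes outside the cycle whose pattern was most like that of Rpe65 were sought, with the members left out, among 11058 probes of named genes with at least the median SD over the arrays. They were 1700084J12Rik, 4930412C18Rik, Ces5a, Smad6, Olfr921, Cyp3a11, Tbc1d10c, Nhsl1, Chrna5 and Ap4e1, with Pearson's r from 0.957 down to 0.881 over 8 arrays. The dimmer Rpe65 probe and the Rgr probe A_55_P2095673 had r of 0.858, below all of these, and 0.893, within their range. For Rbp3 the nearest included Rasa3, Prr12, Rab11b, Cux1, Itgb3, 1700123K08Rik, Rrp1b, Cebpa and Nron, with r from 0.932 to 0.895. These are descriptions over 8 arrays that share depth and normalization.

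Around the members, 53 other genes of retinoid metabolism and signaling were listed, of which 52 had a probe and 40 were retained. Of the 40, limma called 1, against 0.572% of the 16093 genes at the probe of highest mean signal, and 4 had an unadjusted p under 0.05, against 6.6%. Under the Mrp4-null label 19 were higher and 21 lower, and the median log2 fold change was -0.004, against -0.01 over all genes. By role, the list called 0 of 10 dehydrogenases and reductases, 1 of 5 isomerase, ester-forming and opsin-like genes, 0 of 8 carriers and transporters, 0 of 1 carotene oxygenases, 0 of 7 genes of retinoic acid synthesis and breakdown, 0 of 6 receptors and 0 of 3 visual pigments.

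The called gene was Opn3, an opsin expressed in many tissues outside photoreceptors. It read 4.72, 4.55, 4.71 and 4.39 on Mrp4-null 1 to 4 and 5.10, 5.43, 5.48 and 5.27 on WT 1 to 4. Its groups did not overlap, and the log2 fold change was -0.73 (SE 0.12, limma adjusted p = 0.0325). The call was lost under the 75th percentile shift, the normexp background, no filter, the local pooled error test, robust variances, a block for sample number and every removal of arrays except that of WT 1, with the log2 fold change at -0.18 with normexp and between -0.80 and -0.66 under all other alternatives.

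Dhrs3, a reductase of all-trans-retinal in cone outer segments and other tissues, had non-overlapping groups at its brighter probe. That probe read 14.85, 14.73, 14.73 and 14.82 on Mrp4-null 1 to 4 and 14.43, 14.35, 14.33 and 14.19 on WT 1 to 4. Dhrs3 was not called, at a log2 fold change of 0.46 (SE 0.08, limma adjusted p = 0.0581), which is under the fold limit, and the adjusted p in limma was 0.0103 with an intensity trend and robust variances. The other Dhrs3 probe had a log2 fold change of 0.35 (SE 0.23) with overlapping groups. Aldh1a3, which makes retinoic acid from retinal, read 5.17, 4.88, 4.66 and 4.98 on Mrp4-null 1 to 4 and 4.00, 4.49, 3.52 and 3.98 on WT 1 to 4. Its log2 fold change was 0.92 (SE 0.20, limma adjusted p = 0.137), and with the normexp background it was 0.23. The probe was well above background on 4 arrays labelled Mrp4-null and on 3 WT arrays. It was thus retained only through the group where it read higher. Rbp4, the plasma carrier of retinol that Stra6 binds, read from 7.67 to 7.91 and from 7.90 to 8.13, with a log2 fold change of -0.26 (SE 0.09, limma adjusted p = 0.514).

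The other listed genes named whatever their values showed small differences. Abca4, the photoreceptor transporter that clears retinal from the disc, had a log2 fold change of -0.01 (SE 0.07). Rdh10, a retinol dehydrogenase, had -0.03 (SE 0.13), and Rrh, the opsin-like peropsin of the pigment epithelium, had -0.01 (SE 0.10). Aldh1a1 had 0.11 (SE 0.09).

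Ttr, which carries Rbp4 and is made by the pigment epithelium, was the marker of that list with the highest correlation with Rpe65. Its brighter probe gave r = 0.82 over the 8 arrays and had a log2 fold change of 0.08 (SE 0.19). Its dimmer probe read 6.78, 5.03, 5.69 and 6.78 on Mrp4-null 1 to 4 and 6.20, 6.63, 5.22 and 5.65 on WT 1 to 4, which is high on the same 4 arrays as Rpe65 and Lrat. Other genes of the list with a correlation to Rpe65 above 0.7 were Rarb at 0.737, Dhrs7 at 0.708 and Aldh1a3 at 0.704, and the 40 genes together had a median of 0.06. Ttr and Rrh stand in this list and among the pigment epithelium markers.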

How the data were processed

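Scanner output was deposited by the authors for every array, made with Agilent Feature Extraction 11.0.1.1, in which the processed signal intensity of each spot is background-subtracted and not normalized between arrays. They also deposited 1 table of the series that holds the mean processed intensity per probe. Here, outlier spots were left out, the log2 intensity was averaged per probe, and probes were retained as stated above, if measured on 3 or more arrays of that genotype and 2 of its counterpart. The 37085 retained probes were quantile normalized, as in the methods. R 4.3.3 and limma 3.58.1 (lmFit and eBayes) were used with genotype as the only term, and the script was tested on simulated data. Genes with several probes kept each probe, and counts of genes used the probe of highest mean signal. Accessions matched a RefSeq gene table for 58.3% of the probes. No spot was saturated. The number of arrays limits the precision.

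The members, gene lists and naming rule (all members, listed retinoid genes called or with an unadjusted p under 0.05, 8 listed genes whatever their values, the 10 nearest patterns to Rpe65 and Rbp3, and Abcc4) were chosen with earlier results of these data known. A few genes that the rule names are not reported here. The lists hold 10 pigment epithelium (Mfrp matched no probe), 8 melanin, 10 Müller glia, 10 rod, 8 cone, 10 lens and 5 stroma genes. Crabp2 matched no probe. The alternatives were a 75th percentile shift, cyclic loess, normexp with an offset of 50, 2 other filters, outlier spots kept, the deposited table, the sample number as a block, robust variances with an intensity trend, the local pooled error test, the adjusted p alone, every probe of a gene, and arrays left out.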

Additional observations from a re-analysis of the deposited data

Results flagged for a closer look

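In groups of 4 arrays, the gap of the highest or lowest array to its neighbour was set against the group's range. Of 64 groups screened, 2 exceeded the limit of Dixon's test, which chance alone exceeds in about 1 group in 20. Rdh10 had a ratio of 0.852 on the arrays labelled Mrp4-null, where array 2 read 10.65 and the others 11.03 to 11.10. The mean of the 10 rod markers had a ratio of 0.878 on the WT arrays, where array 1 read 16.42 and the others 16.27 to 16.29. No retinoid cycle member was among them.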

How the results depend on the processing

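The count of called members was 0 under all 20 alternatives tried, with adjusted p from 0.20 upward. The number of called probes of the array, 202, became 71 with the sample number as a block and 128 without Mrp4-null 2 and WT 3 together, and ranged from 117 to 188 without single arrays. Same-numbered samples did not deviate together (r of -0.29, -0.685, 0.0344 and 0.409 for numbers 1 to 4), so the numbers were not taken as pairs. The count of called other retinoid genes was 0 with the 75th percentile shift, normexp, no filter, the 2 arrays left out, the local pooled error test, robust variances and the block, and 0 to 1 without single arrays. Residual SDs were 0.285 (pigment epithelium) and 0.0852 (photoreceptor) with normexp.

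Without single arrays the sign of these log2 fold changes turned: the dim Rpe65 probe (-0.173 to 0.489), Rdh5 (-0.018 to 0.158), Rgr A_55_P2095673 (-0.027 to 0.255) and A_51_P139985 (-0.241 to 0.018), Rbp3 (-0.007 to 0.097), Abca4 (-0.03 to 0.02), Rdh10 (-0.108 to 0.072), Rrh (-0.053 to 0.064) and Ttr (-0.068 to 0.205). Rbp3 was -0.002 with the 75th percentile shift. Correlations ranged without single arrays from 0.767 to 0.942 (Rpe65), 0.694 to 0.869 (Rlbp1 with pigment epithelium), -0.318 to 0.837 (Rlbp1 with Müller glia) and 0.818 to 0.9 (Rbp3). The 75th percentile shift gave 0.111 and -0.00463 for the pair of Rlbp1 relations, and leaving out the 2 farthest arrays gave 0.694 for Rlbp1 and 0.748 for Rbp3. The cause of these changes was not tested. The local pooled error test called 9 marker genes, whose names were not recorded, and limma called 0. Signal over background limits Lrat and the dim Rpe65 probe.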
